A study of Homo sapiens with 9 samples.

Results

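The genes described here are 10 genes of DNA excision repair, lesion bypass and nucleotide supply, chosen by symbol from the 26475 gene symbols of the expected-count table of A375 cells treated with TP-472. They are the nucleotide excision repair genes XPA, XPC, DDB1, DDB2, ERCC2, ERCC3 and ERCC5, the translesion polymerases POLH and POLK, and RRM2B, a subunit of ribonucleotide reductase. XPC, DDB2, POLH and RRM2B are known p53 targets and were taken as the p53-inducible class of 4 genes, to be set against the 6 other members. Members and classes were chosen with earlier results of these data known, so the contrast between the classes is a description. All 10 members passed the filter on low counts and were among the 16417 genes tested. The A375 line comes from a human melanoma with mutant BRAF and intact p53, and TP-472 is a chemical probe that blocks the bromodomains of BRD9 and BRD7. The control cells received DMSO, the treated cells received 5 µM or 10 µM TP-472, and RNA was taken after 24 h from 3 libraries per group, described in the labels as biological replicates of this single line. The comparisons asked whether these genes differed at each dose from DMSO and between the doses.

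Nucleotide excision repair removes bulky and ultraviolet-induced lesions by recognising the distorted helix, opening it, cutting out the damaged stretch and filling the gap. XPC and the DDB1-DDB2 complex recognise lesions across the genome, TFIIH with its helicase subunits ERCC2 and ERCC3 opens the helix, XPA verifies the lesion, and ERCC5 is an endonuclease that cuts the damaged strand. Translesion polymerases such as POLH and POLK copy across lesions that stop the replicative polymerases, and ribonucleotide reductase makes the deoxynucleotides that both repair and replication consume.

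The libraries held 42483091 to 51298130 expected counts each, and genes of ribosomal RNA took 8.20% to 19.9% of them. Markers of the melanocyte lineage were in part present in DMSO, where 5 of 8 reached 1 CPM (counts scaled to library size), with SOX10 at 417 CPM and MITF at 31.9 CPM, whereas TYR and DCT were at 0 and MLANA was at 0.173 CPM. None of the 3 leukocyte markers reached 1 CPM in DMSO, and neither did 3 of the 4 keratinocyte and epithelial markers, with KRT14 as the exception at 6.92 CPM. Of the 2 endothelial markers PECAM1 reached 1.79 CPM. All 3 markers of dedifferentiated melanoma were present in DMSO, AXL at 523 CPM, and their summed level ran from 632 to 645 CPM in the DMSO libraries, from 478 to 482 CPM in those given 5 µM and from 454 to 526 CPM in those given 10 µM. Its part in the results was not tested. The library labelled 10 µM replicate 1 stood apart. Its root mean square deviation from the mean of its group was 0.640 on the log2 CPM scale, against 0.251 to 0.485 in the other 8 libraries, and 11.2% of the variance of its deviations went with the length and GC content of the transcripts, against 4.89% and 5.39% in the other 10 µM libraries and at most 0.461% elsewhere. Results for 10 µM are therefore given with and without this library where it matters.

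All 4 p53-inducible members were higher in TP-472-treated than in DMSO-treated cells at both doses, by 1.33-fold to 2.70-fold. Of the 6 other members, 0 passed the test at 5 µM and 3 passed at 10 µM in the main edgeR fit of all libraries. A gene was called at an adjusted p under 0.05 by the quasi-likelihood test of edgeR (Benjamini-Hochberg). At 5 µM, 4 of the 10 members were called higher and 0 lower, beside 4.4% of all tested genes called higher and 5.81% called lower. At 10 µM, 6 were called higher and 1 lower, beside 16.4% higher and 18% lower among all tested genes. Between 10 µM and 5 µM, 0 of 10 were called in either direction, where 2.87% of tested genes were called higher and 5.53% lower. At an unadjusted p under 0.05, 1 member was higher and 1 lower at that step, and DESeq2 called 0. Without 10 µM replicate 1, RRM2B and POLH were called higher there, beside 8.8% of all tested genes called higher and 15.4% lower in that fit. At each dose against DMSO, that fit called 5 members higher and 1 lower, where 16.5% of all tested genes were called higher and 17.6% lower at 5 µM, and 23% and 25.8% at 10 µM. Its calls outside the p53-inducible class were ERCC3, higher, and ERCC2, lower, at both doses. The p53-inducible class had a median log2 fold change of 0.82 at the lower and 0.91 at the higher dose, that of the other members was 0.04 and 0.03, and that of all tested genes was 0.01 at both doses. RNA of whole cultures was measured, so a change in the share of cells that expressed a gene and a change within each cell cannot be told apart.

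**Figure D1:**
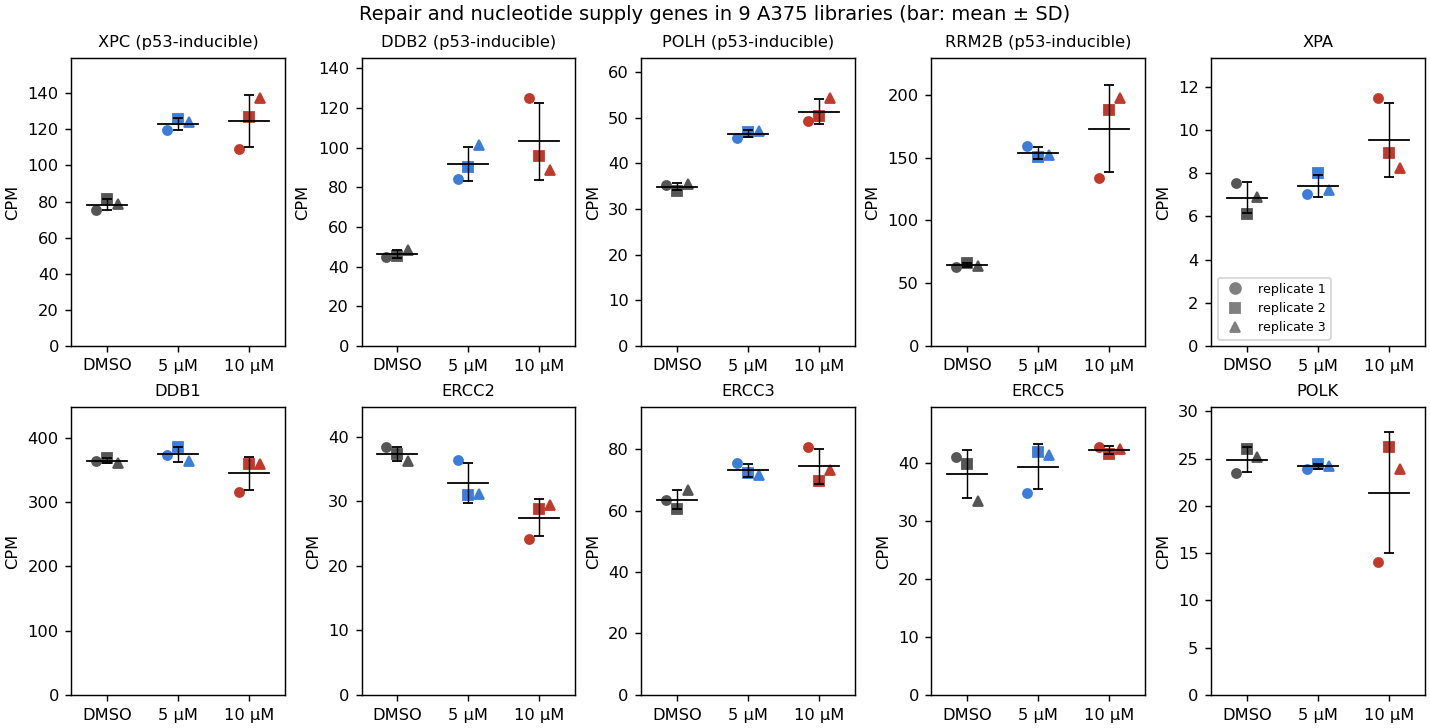
Level of each of the 10 genes in every library, in CPM on axes that start at 0, against DMSO, 5 µM and 10 µM TP-472. Points are single libraries with the marker shape giving the replicate number, horizontal bars are group means and error bars are SDs of 3 libraries. For XPC, DDB2, POLH and RRM2B every treated library lies above every DMSO library, and the 10 µM libraries of RRM2B run from 133 to 198 CPM.

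RRM2B, the p53-inducible small subunit of ribonucleotide reductase, lies on chromosome 8 from 102204502 to 102239118 on the minus strand (GENCODE release 29, GRCh38) and had the largest fold change of the 10 members at both doses. Its level was 62.9, 65.9 and 63.7 CPM in the DMSO libraries. At 5 µM it was 159, 150 and 152 CPM, and at 10 µM it was 133, 188 and 198 CPM. The treated libraries did not overlap those of DMSO, and at 10 µM replicate 1 lay below the whole 5 µM range while replicates 2 and 3 lay above it. RRM2B rose 2.40-fold at 5 µM (log2 fold change 1.26 ± 0.13, SE, edgeR adjusted p = 0.000352) and 2.70-fold at 10 µM (1.43 ± 0.13, edgeR adjusted p = 3.18e-05). The doses differed by 0.17 ± 0.13 on the log2 scale (edgeR adjusted p = 0.443). Without 10 µM replicate 1 the difference between the doses was 0.32 ± 0.04 and passed the test (edgeR adjusted p = 6.16e-05), and the change at 10 µM was 1.58. Once the trend with length and GC content of the transcripts was removed, the doses also differed, by 0.26 (edgeR adjusted p = 0.00813).

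DDB2, the subunit of the ultraviolet damage sensor that contacts the lesion, lies on chromosome 11 from 47214465 to 47239240 on the plus strand. The DMSO libraries held 45.1, 45.5 and 48.5 CPM. At 5 µM the level was 84.3, 90.1 and 101 CPM, and at 10 µM it was 125, 95.6 and 88.6 CPM. Both treated ranges lay above DMSO and overlapped each other, and here 10 µM replicate 1 was the highest library and not the lowest. DDB2 rose 1.98-fold at 5 µM (log2 fold change 0.99 ± 0.13, edgeR adjusted p = 0.00128) and 2.22-fold at 10 µM (1.15 ± 0.13, edgeR adjusted p = 0.000119). The difference between the doses was 0.17 ± 0.13 (edgeR adjusted p = 0.452), and without 10 µM replicate 1 the change at 10 µM was 0.99, equal to that at 5 µM to 2 decimals.

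XPC, the global sensor of helix distortion, lies on chromosome 3 from 14145147 to 14178783 on the minus strand. Its level was 75.2, 81.2 and 78.4 CPM in DMSO. It was 119, 126 and 124 CPM at 5 µM and 109, 127 and 137 CPM at 10 µM. Every treated library lay above every DMSO library, and the 10 µM libraries surrounded those at 5 µM. XPC rose 1.57-fold at 5 µM (log2 fold change 0.65 ± 0.09, edgeR adjusted p = 0.00170) and 1.59-fold at 10 µM (0.67 ± 0.09, edgeR adjusted p = 0.000391). The doses differed by 0.01 ± 0.09 (edgeR adjusted p = 0.938), and without 10 µM replicate 1 the change at 10 µM was 0.75. The exons of XPC share 8.30% of their length with LSM3 on the opposite strand, which had 44.5 CPM in DMSO. They share 16.6% with AC093495.1 and 10.8% with AC090004.1, also on the opposite strand and not among the symbols counted. Whether strand was used in counting is not given.

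POLH encodes polymerase eta, which copies across ultraviolet-induced pyrimidine dimers and is lost in the variant form of xeroderma pigmentosum. It lies on chromosome 6 from 43576150 to 43615660 on the plus strand. The level was 35.2, 34.0 and 35.5 CPM in DMSO, 45.6, 46.8 and 47.2 CPM at 5 µM, and 49.4, 50.3 and 54.4 CPM at 10 µM. The 3 groups did not overlap and followed the order of the doses. POLH rose 1.33-fold at 5 µM (log2 fold change 0.42 ± 0.07, edgeR adjusted p = 0.00572) and 1.47-fold at 10 µM (0.56 ± 0.07, edgeR adjusted p = 0.000286), the smallest changes of the p53-inducible class. The difference between the doses, 0.14 ± 0.07, did not pass the test (edgeR adjusted p = 0.247), and without 10 µM replicate 1 it was 0.17 ± 0.06 (edgeR adjusted p = 0.0494).

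The calls of the p53-inducible members held in every alternative fit that was run. RRM2B, DDB2, XPC and POLH each passed in 18 of 18 alternative fits at 5 µM and in 18 of 18 at 10 µM. The largest edgeR adjusted p among these fits was 0.0479 for POLH at 5 µM. With a fold of at least 1.5 asked for as well, POLH was not called at either dose.

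Promoter windows in RefSeq (GRCh38.p14), reaching from 250 bases before to 50 bases after an annotated start, were found for 9 of the 10 members, with 2 windows for DDB2. They were searched for the consensus p53 half-site of 10 bases (purines, then C, a centre of A or T, G and pyrimidines), which reads the same on both strands. Where 1 mismatch was allowed, the C and the G still had to match. A pair of exact half-sites at most 13 bases apart was found in 1 member window, the second DDB2 window. In that window the half-sites begin 6 and 17 bases downstream of the start, counted from 1 at the first transcribed base, with 1 base between them (chr11:47214979-47214999), inside the first exon. Of 34943 RefSeq promoter windows of the same length, 45.1% held a half-site with at most 1 mismatch, 6.64% held an exact half-site and 10 held such a pair. The windows of XPC and POLH held no half-site by this rule even with 1 mismatch allowed, which says only that no such match is in these windows. The XPC window does hold gaatttgccc, which departs from the consensus only at the C. The DDB2 window (chr11:47214724-47215023, plus strand) is shown with both exact half-sites in capitals, beside the windows of XPC (chr3:14178552-14178851, minus strand) and POLH (chr6:43575935-43576234, plus strand), so that a p53-inducible gene with the motif near its start can be compared with others without it.
DDB2: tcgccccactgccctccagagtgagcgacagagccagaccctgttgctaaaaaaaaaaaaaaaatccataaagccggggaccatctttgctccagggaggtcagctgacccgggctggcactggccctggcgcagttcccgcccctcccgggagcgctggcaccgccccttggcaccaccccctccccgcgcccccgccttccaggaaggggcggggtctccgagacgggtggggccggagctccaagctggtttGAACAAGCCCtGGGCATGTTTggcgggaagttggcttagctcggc
XPC: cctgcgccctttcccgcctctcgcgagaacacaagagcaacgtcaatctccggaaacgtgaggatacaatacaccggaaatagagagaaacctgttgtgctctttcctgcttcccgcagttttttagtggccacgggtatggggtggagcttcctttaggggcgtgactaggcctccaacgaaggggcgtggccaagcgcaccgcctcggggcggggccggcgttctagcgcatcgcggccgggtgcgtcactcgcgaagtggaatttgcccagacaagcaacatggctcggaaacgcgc
POLH: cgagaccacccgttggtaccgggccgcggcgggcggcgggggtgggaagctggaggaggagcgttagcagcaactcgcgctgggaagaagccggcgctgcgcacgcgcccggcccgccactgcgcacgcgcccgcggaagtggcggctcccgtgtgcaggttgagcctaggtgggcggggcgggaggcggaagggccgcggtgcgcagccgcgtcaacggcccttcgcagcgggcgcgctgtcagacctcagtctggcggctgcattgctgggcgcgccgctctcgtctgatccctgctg

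By the same rule, the windows of ERCC3, POLK and DDB1 held no half-site. Those of XPA, ERCC5, ERCC2 and the first DDB2 start held 1 each, with 1 mismatch. The second DDB2 window held 1 more besides its exact pair, aagctggttt with 1 mismatch, directly before the pair (chr11:47214969-47214978). RRM2B had no entry. The motif match in DDB2 is a description of the sequence, and binding of p53 was not measured.

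Ribonucleotide reductase pairs the large subunit RRM1 with either RRM2, the small subunit of S phase, or RRM2B, and here RRM2B rose while RRM1 and RRM2 fell. RRM2 fell by 0.32 on the log2 scale at 5 µM (edgeR adjusted p = 0.0103) and by 0.62 at 10 µM (edgeR adjusted p = 7.11e-05). RRM1 fell by 0.41 at 5 µM (edgeR adjusted p = 0.0163) and by 0.85 at 10 µM (edgeR adjusted p = 7.94e-05). Without 10 µM replicate 1 the changes at 10 µM were -0.64 for RRM2 and -0.77 for RRM1. Both also fell from 5 µM to 10 µM, RRM2 by 0.29 (edgeR adjusted p = 0.0217) and RRM1 by 0.43 (edgeR adjusted p = 0.0163), a step at which RRM2B did not pass the test. Per kilobase of the longest transcript, RRM2 ran from 50.3 to 53.8 CPM in DMSO, from 40.9 to 42.6 at 5 µM and from 33.2 to 34.8 at 10 µM, with no overlap between the groups. RRM1 ran from 36.5 to 37.7, from 26.0 to 29.1 and from 18.2 to 22.2 CPM per kilobase in the same order, again without overlap.

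Set against RRM2 on this per-kilobase scale, RRM2B stood higher in every treated library than in DMSO. Its level was 23.7%, 25.6% and 25.7% of that of RRM2 in the DMSO libraries (25.0% ± 1.11, SD, n = 3). It was 78.0%, 74.4% and 72.6% at 5 µM (75.0% ± 2.77, SD, n = 3) and 77.7%, 115% and 118% at 10 µM (104% ± 22.4, SD, n = 3). All treated libraries lay above DMSO, and 10 µM replicate 1 fell within the range of 5 µM while replicates 2 and 3 were above it. The ratio combines a rise of RRM2B and a fall of RRM2, both of which passed the test on their own, and it was not tested itself. Its level rests on the longest transcript of each gene, 4931 bases for RRM2B and 3673 for RRM2. Which transcripts the cells made was not examined.

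**Figure D2:**
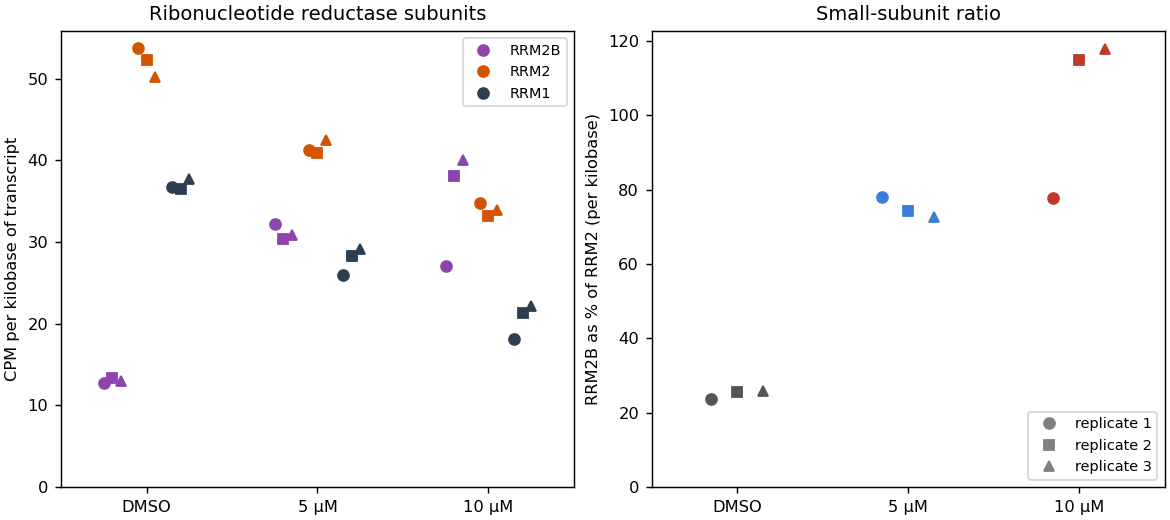
Left, levels of RRM2B, RRM2 and RRM1 in every library in CPM per kilobase of transcript, with marker shapes for the replicate number. Right, RRM2B as a percentage of RRM2 in the same libraries, which averages 25.0% in DMSO and 75.0% at 5 µM and spans 77.7% to 118% at 10 µM.

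Of the 6 other members 3 were called at 10 µM, namely ERCC2, ERCC3 and XPA, and none of these calls held in every alternative fit. DDB1, the adaptor that joins DDB2 to CUL4 ubiquitin ligases, had 363, 369 and 361 CPM in DMSO, 373, 385 and 363 CPM at 5 µM and 315, 359 and 359 CPM at 10 µM. It changed by 0.04 ± 0.07 (log2) at 5 µM and by -0.08 ± 0.07 at 10 µM, and neither passed (edgeR adjusted p = 0.816 and 0.423). The partner of DDB1, DDB2, thus rose while DDB1 itself was not called, although the 10 µM range of DDB1 lay just below that of DMSO.

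ERCC2, the TFIIH helicase that unwinds the helix at the lesion, was the only member called lower. The DMSO libraries held 38.4, 37.3 and 36.2 CPM, those at 5 µM held 36.4, 30.9 and 31.1 CPM, and those at 10 µM held 24.2, 28.8 and 29.4 CPM. The 10 µM libraries lay below all others, with replicate 1 the lowest, and 1 library at 5 µM reached the DMSO range. ERCC2 changed by -0.19 ± 0.10 (log2) at 5 µM (edgeR adjusted p = 0.299) and by -0.44 ± 0.10 at 10 µM (edgeR adjusted p = 0.00768). Without 10 µM replicate 1 the change at 5 µM was -0.19 ± 0.07 and was called (edgeR adjusted p = 0.0452). The call at 10 µM held without replicate 1 (-0.36, edgeR adjusted p = 0.00115) and was lost after removal of the trend with length and GC content (-0.25, edgeR adjusted p = 0.0570). The exons of ERCC2 share 535 bases, 12.1% of their length, with KLC3 on the opposite strand, which had 1.40 CPM in DMSO. The expected counts of ERCC2 were fractional in all 9 libraries, and its values carry the uncertainty of that estimate.

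ERCC3, the DNA translocase of TFIIH, had 63.5, 60.4 and 66.8 CPM in DMSO, 75.4, 72.2 and 71.5 CPM at 5 µM and 80.7, 69.6 and 73.1 CPM at 10 µM. All treated libraries lay above DMSO and the doses overlapped. The change was 0.20 ± 0.08 at 5 µM (edgeR adjusted p = 0.153) and 0.23 ± 0.08 at 10 µM (edgeR adjusted p = 0.0495), and the call at 10 µM held in 6 of 18 alternative fits, the fit without replicate 1 among them (0.16, edgeR adjusted p = 0.0226). The call at 10 µM was lost when any DMSO or 5 µM library was left out. At 5 µM ERCC3 was called in 2 of 18 alternative fits. One was the fit without 10 µM replicate 1 (0.20 ± 0.05, edgeR adjusted p = 0.00559). XPA, the scaffold that verifies the lesion, was among the least abundant, with 7.57, 6.13 and 6.90 CPM in DMSO, 7.05, 8.0 and 7.23 CPM at 5 µM and 11.5, 8.96 and 8.23 CPM at 10 µM. Its highest library was 10 µM replicate 1. XPA changed by 0.11 ± 0.15 at 5 µM (edgeR adjusted p = 0.736) and by 0.48 ± 0.15 at 10 µM (edgeR adjusted p = 0.0353), and this call held in 7 of 18 alternative fits and was lost without 10 µM replicate 1 (0.32, edgeR adjusted p = 0.0625) and without any DMSO or 5 µM library. Both calls at 10 µM were also lost after removal of the trend with length and GC content, with edgeR adjusted p = 0.107 for XPA and 0.0597 for ERCC3.

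ERCC5, the endonuclease of this set, had 41.1, 39.9 and 33.5 CPM in DMSO, 34.9, 42 and 41.5 CPM at 5 µM and 42.9, 41.5 and 42.6 CPM at 10 µM. The changes of 0.05 ± 0.10 (log2) at 5 µM and 0.15 ± 0.10 at 10 µM did not pass (edgeR adjusted p = 0.843 and 0.300). These values are uncertain, because 64.4% of the exon bases of ERCC5 are shared on the same strand with the readthrough gene BIVM-ERCC5, and its expected counts were fractional in all 9 libraries. With the counts of both added together, the level was 75.4 ± 1.55 CPM in DMSO, 83.7 ± 1.27 at 5 µM and 75.8 ± 11.2 at 10 µM (SD, n = 3), and neither dose passed (log2 fold change 0.15 and 0.01, edgeR adjusted p = 0.431 and 0.969).

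POLK encodes polymerase kappa, which bypasses bulky adducts of the minor groove. It had 23.5, 26.0 and 25.1 CPM in DMSO, 23.9, 24.4 and 24.3 CPM at 5 µM and 14.1, 26.2 and 23.9 CPM at 10 µM. A single library, 10 µM replicate 1, was low, and the others of all groups overlapped. The change was -0.04 ± 0.19 at 5 µM (edgeR adjusted p = 0.932) and -0.22 ± 0.19 at 10 µM (edgeR adjusted p = 0.411), and without that library it was 0.01 at 10 µM. Of the polymerases in the set, POLH thus passed at both doses and POLK at neither.

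**Figure D3:**
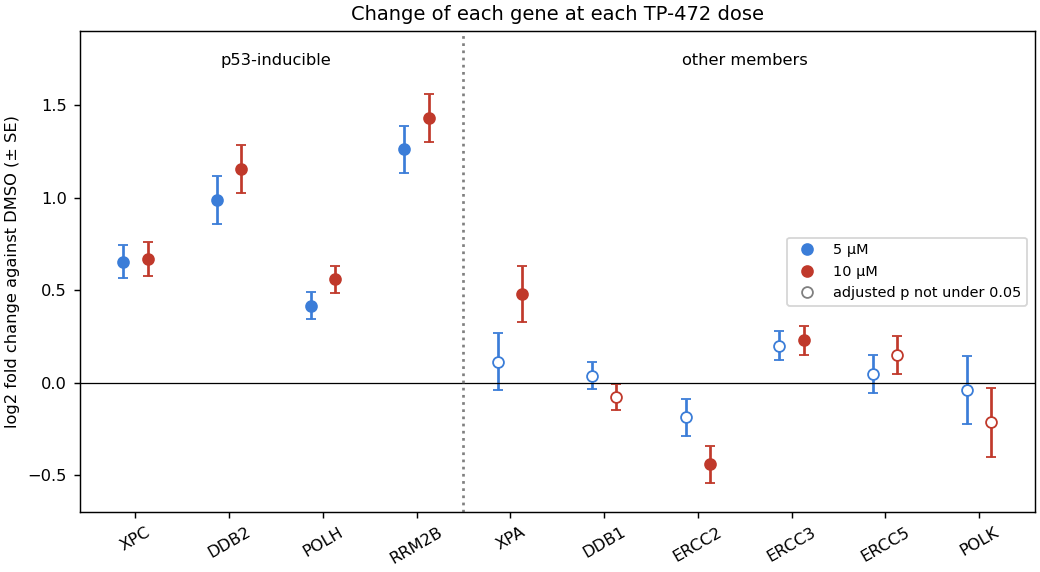
Log2 fold change of each gene against DMSO at 5 µM and 10 µM with its SE, p53-inducible members left of the dotted line and other members right of it. Filled points passed edgeR's quasi-likelihood test at an adjusted p under 0.05 and open points did not. The p53-inducible members run from 0.42 for POLH at 5 µM to 1.43 for RRM2B at 10 µM, and the other members from -0.44 to 0.48.

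Groups that did not overlap were frequent among all genes. At 5 µM, 5 of the 10 members had treated libraries that did not overlap those of DMSO, beside 48.7% of all tested genes, and at 10 µM it was 9 of 10, beside 49.3%. Between the doses 4 of 10 did not overlap, beside 28.3%. The exception at 10 µM was POLK.

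The classes lay apart in every treated library. Relative to the DMSO mean, the mean log2 CPM of the p53-inducible class was 0.792, 0.823 and 0.869 at 5 µM and 0.867, 0.955 and 1.00 at 10 µM, whereas the DMSO libraries lay between -0.0278 and 0.0207. The other members lay between 0.0119 and 0.0563 at 5 µM and between -0.0636 and 0.0550 at 10 µM, the lowest value being that of 10 µM replicate 1. The difference between the medians of the fitted log2 fold changes of the classes was 0.78 at 5 µM and 0.88 at 10 µM. Taken within single libraries, the difference between the class medians ran from 0.709 to 0.861 at 5 µM and from 0.768 to 0.803 at 10 µM. This difference is a description and was not tested.

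**Figure D4:**
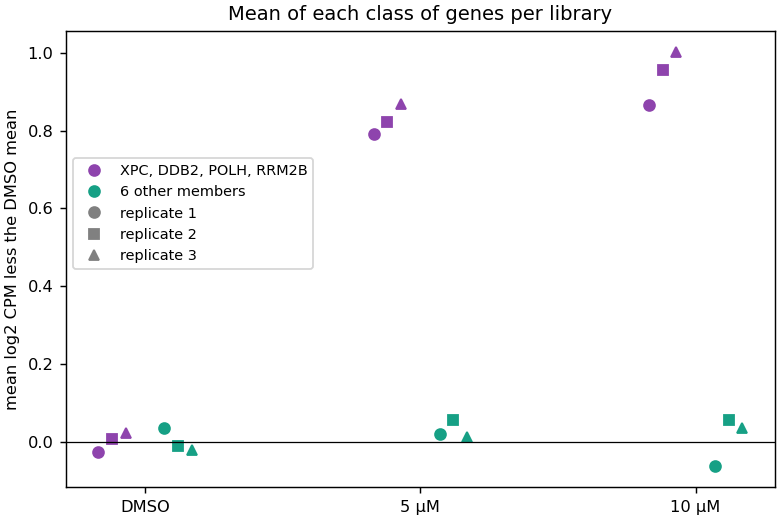
Mean log2 CPM of the p53-inducible members (XPC, DDB2, POLH, RRM2B) and of the 6 other members in each library, less the mean of the DMSO libraries. The p53-inducible class lies between 0.792 and 1.00 in the treated libraries and the other class between -0.0636 and 0.0563.

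Levels of different genes were compared per kilobase of the longest coding transcript. In DMSO the order was DDB1 at 80.8 CPM per kilobase, DDB2 at 24.8, ERCC3 at 22.8, XPC at 20.4, RRM2B at 13, POLH at 9.85, ERCC2 at 9.05, ERCC5 at 7.42, XPA at 4.85 and POLK at 4.21, and of these neighbours only XPA and POLK overlapped. At 5 µM DDB1 remained highest at 83.0, followed by DDB2 at 49.1, XPC at 32.1 and RRM2B at 31.2, the last 2 overlapping, and ERCC3 came next at 26.2. At 10 µM the order began with DDB1 at 76.4, DDB2 at 55.2, RRM2B at 35.1, XPC at 32.5 and ERCC3 at 26.7, where the ranges of RRM2B and XPC and those of XPC and ERCC3 overlapped. RRM2B and XPC thus stood below ERCC3 in DMSO and above it in the mean at both doses, and DDB2 came from 24.8 to 55.2 CPM per kilobase beside its partner DDB1.

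The other genes of these pathways were examined in 5 lists of 101 genes, all of which were in the table and tested. At 5 µM, 2 of the 101 were called higher and 12 lower, and at 10 µM 12 were called higher and 31 lower, with a median log2 fold change of -0.10 at 10 µM. The shares were 1.98% and 11.9% at 5 µM, beside 4.4% and 5.81% of all tested genes. At 10 µM they were 11.9% and 30.7%, beside 16.4% and 18%. Without 10 µM replicate 1, 16 were higher and 39 lower at 5 µM, and 19 were higher and 46 lower at 10 µM. Of all tested genes, that fit called 16.5% and 17.6% at 5 µM and 23% and 25.8% at 10 µM, higher and lower. Of 28 further nucleotide excision repair genes, 0 were called higher and 1 lower at 5 µM, and 4 were called higher and 3 lower at 10 µM, with medians of -0.01 and 0.05. The shares higher and lower were 0% and 3.57% at 5 µM, near the 4.4% and 5.81% of all tested genes. At 10 µM they were 14.3% and 10.7%, beside 16.4% and 18% of all tested genes. At 5 µM 0 of them were higher also at an unadjusted p under 0.05 and in DESeq2, whereas without 10 µM replicate 1 the counts were 4 higher and 6 lower at 5 µM and 6 and 6 at 10 µM. The largest changes at 10 µM were those of ELOF1, an elongation factor of transcription-coupled repair (0.68 ± 0.17, edgeR adjusted p = 0.0107), STK19 of the same pathway (0.51 ± 0.13, edgeR adjusted p = 0.0108), CUL4B, a scaffold of the ubiquitin ligases that hold DDB1 (-0.68 ± 0.15, edgeR adjusted p = 0.00655), and RPA1, which coats single-stranded DNA (-0.58 ± 0.08, edgeR adjusted p = 0.000343). Without 10 µM replicate 1 the change of ELOF1 was 0.42 (edgeR adjusted p = 3.97e-05). The genes of the 5 lists named for their change at 10 µM were all called there without that library too, though some sizes lean on it. Replicate 1 lay farther from DMSO than replicates 2 and 3 for CUL4B (61.3 against 95.6 and 97.3 CPM). The same held for POLB (40.2 against 29.9 and 26.6) and POLE4 (42.4 against 27.7 and 33.5). It lay nearer to DMSO for TK1 (64.3 against 46.6 and 42.6) and LIG1 (28.3 against 24.8 and 24.2).

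Of 21 further damage bypass genes, 4 were called higher and 9 lower at 10 µM, against 0 and 1 at 5 µM, where 1 was higher at an unadjusted p under 0.05 and 1 in DESeq2. The shares at 10 µM were 19.0% and 42.9%, beside 16.4% higher and 18% lower among all tested genes. At 5 µM they were 0% and 4.76%, beside 4.4% and 5.81%. With 10 µM replicate 1 left out, 5 were higher and 8 lower at 5 µM, and 7 were higher and 10 lower at 10 µM. Of all tested genes, that fit called 16.5% higher and 17.6% lower at 5 µM, and 23% and 25.8% at 10 µM. UBE2V2, which helps extend ubiquitin chains on PCNA, and PCNA, the sliding clamp, rose by 0.44 ± 0.10 and 0.43 ± 0.10 at 10 µM (edgeR adjusted p = 0.00688 and 0.00618). PCLAF, a clamp-associated factor listed under its older symbol KIAA0101, fell by 1.10 ± 0.11 (edgeR adjusted p = 5.45e-05), and POLQ, the polymerase of end joining by microhomology, fell by 0.86 ± 0.20 (edgeR adjusted p = 0.00923). The median of the list was -0.12 at both doses, beside the 0.42 and 0.56 of POLH. With the trend of length and GC content removed, the change of PCNA was 0.23 (edgeR adjusted p = 0.00664).

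Of 16 further deoxynucleotide supply genes, 0 rose and 5 fell at 5 µM, and 0 rose and 7 fell at 10 µM, with medians of -0.05 and -0.27. Among them TK1, the thymidine kinase of S phase, fell by 0.95 ± 0.14 at 10 µM (edgeR adjusted p = 0.000555). RRM2B was higher while 0 of these 16 genes were higher at either dose, also at an unadjusted p under 0.05 and in DESeq2. Of all tested genes, 4.4% were called higher and 5.81% lower at 5 µM, and 16.4% and 18% at 10 µM. A count of 0 higher at 5 µM is thus near the share of all tested genes. Without 10 µM replicate 1, 7 were called lower at 5 µM and 10 at 10 µM, beside 17.6% and 25.8% of all tested genes. In that fit 1 was called higher at each dose, beside 16.5% and 23% of all tested genes. This was SAMHD1, an enzyme that degrades deoxynucleotides and was named after its values were seen (0.30 ± 0.06 and 0.36 ± 0.06, edgeR adjusted p = 0.000729 and 0.000197).

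Of 23 base excision repair genes, 3 were called higher and 4 lower at 10 µM (shares near the 16.4% and 18% of all tested genes), against 2 and 1 at 5 µM. The shares at 5 µM were 8.70% and 4.35%, beside 4.4% and 5.81% of all tested genes. In the fit without 10 µM replicate 1, 4 were higher and 8 lower at 5 µM, and 3 were higher and 10 lower at 10 µM. Of all tested genes, that fit called 16.5% higher and 17.6% lower at 5 µM, and 23% and 25.8% at 10 µM. DESeq2 with all libraries called 5 lower at 5 µM, and its share of all tested genes was not taken. POLB, the gap-filling polymerase of that pathway (0.77 ± 0.14, edgeR adjusted p = 0.00229), and APTX, which repairs stalled ligation ends (0.59 ± 0.09, edgeR adjusted p = 0.000858), rose at 10 µM. The glycosylase NEIL3 fell by 1.35 ± 0.12 (edgeR adjusted p = 2.34e-05) and the ligase LIG1 by 0.65 ± 0.09 (edgeR adjusted p = 0.000493). Of 13 genes of the gap-filling replicative polymerases and the clamp loader, 0 were higher and 4 lower at 5 µM, and 1 was higher and 8 lower at 10 µM, with medians of -0.26 and -0.38. The shares lower were 30.8% and 61.5%, beside 5.81% and 18% of all tested genes. Those higher were 0% and 7.69%, beside 4.4% and 16.4%. At an unadjusted p under 0.05, 1 was higher at 5 µM, and DESeq2 called 0 higher there. At each dose 2 were higher and 10 lower without 10 µM replicate 1. Of the subunits of polymerase epsilon, POLE3 was not called (0.06 ± 0.08, edgeR adjusted p = 0.578), and the changes at 10 µM were POLE4 at 0.78 ± 0.15 (edgeR adjusted p = 0.00276), POLE2 at -1.52 ± 0.18 (edgeR adjusted p = 0.000148) and POLE, its catalytic subunit, at -0.89 ± 0.10 (edgeR adjusted p = 0.000157).

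**Figure D5:**
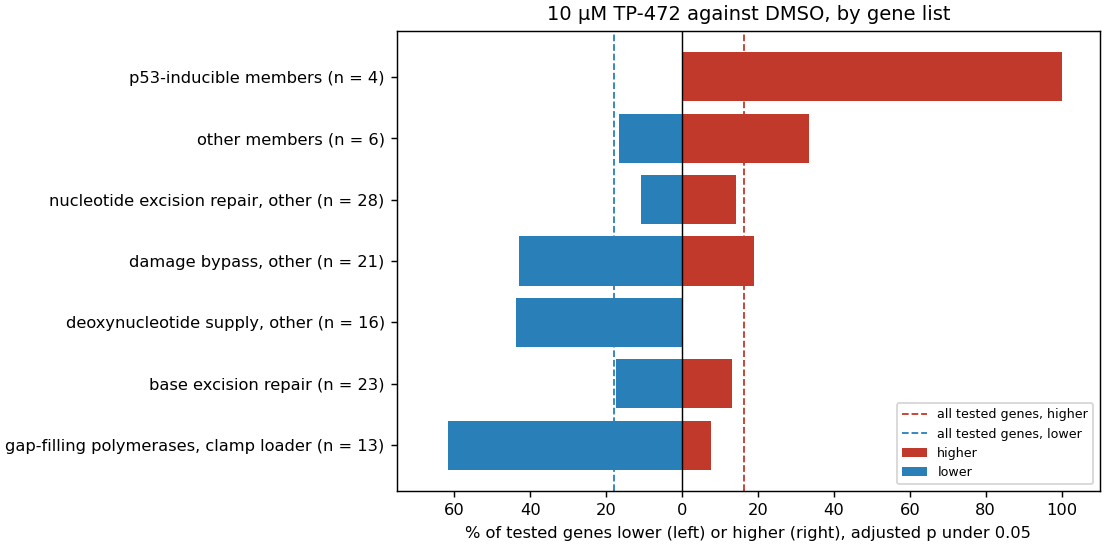
Percentage of the tested genes of each list called lower (left) or higher (right) at 10 µM TP-472 against DMSO in edgeR's test, with dashed lines at the percentages for all tested genes (18% lower, 16.4% higher). All 4 p53-inducible members were higher, 0 of the 16 deoxynucleotide supply genes were, and 8 of the 13 gap-filling polymerase and clamp loader genes were lower.

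The genes whose profiles over the 9 libraries lay nearest to those of the p53-inducible members were found by the root mean square difference of centred log2 CPM among 12538 genes. For POLH they were IDH3A (0.0374), GOLGA1 (0.0470) and GPAT3 (0.0530), and for XPC they were TTPAL (0.0501), TNFRSF10B (0.0573) and WSCD1 (0.0663). For RRM2B they were DDN (0.0967), FAM212B (0.109) and CYFIP2 (0.127), and for DDB2 they were CEND1 (0.0978), CCNA1 (0.106) and TRIAP1 (0.137). DDB2 and RRM2B had no neighbour as close as those of XPC and POLH.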

How the data were processed

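mRNA of A375 cells was profiled in 9 libraries, 3 each for DMSO, 5 µM and 10 µM TP-472. The deposited values are expected counts for each gene symbol, which the authors estimated with RSEM and did not scale. The submitters' processing notes name Bowtie2 2.1.0, RSEM 1.2.15 and the hg38 genome build. Not given in the sources used here are the annotation and the use of strand in counting. By the methods, libraries were made with oligo-dT purification and dUTP strand marking, whereas the design text names depletion of ribosomal RNA, and which was used was not settled here.

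Values were rounded to whole numbers (10.6% to 13.8% of the values per library were not whole) and tested with edgeR 4.0.16 in R 4.3.3, in 1 fit of all 9 libraries with TMM factors of 0.957 to 1.03, the filterByExpr filter at its defaults, which kept 16417 genes, and the quasi-likelihood F test. P-values were adjusted by Benjamini-Hochberg across all genes tested. A gene was called at an adjusted p under 0.05. SEs were derived as |log2 fold change| over the root of F, and CPM values use TMM-scaled library sizes. The p-values measure the spread between these libraries of 1 cell line. The fit was tested on simulated counts. The closest profiles were sought where the mean was at least 1 log2 CPM.

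The members, the classes and the 5 further lists were chosen with earlier results of these data known. Named genes are the members, from each further list at most 2 genes per direction with the largest change at 10 µM among those called, and the 3 nearest profiles to each p53-inducible member. RRM1 and RRM2 were named as the partners of RRM2B. The result for 1 gene that the rule names is left out. Gene positions, lengths, GC content and overlaps are from GENCODE release 29 (GRCh38), and promoters from RefSeq. Alternatives were DESeq2-type size factors, no filter, DESeq2 1.42.0, a replicate block, fits of only the 2 groups compared, removal of a trend with length and GC content (a 4-df spline for each), a fold of at least 1.5, ERCC5 in the p53-inducible class, and each library left out. The omission of ribosomal RNA genes and the sum of ERCC5 and BIVM-ERCC5 were added after seeing the data.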

Additional observations from a re-analysis of the deposited data

How the results depend on the processing

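XPC, DDB2, POLH and RRM2B passed at both doses under every alternative fit run, and POLH fell short of a fold of 1.5 at both doses. At 5 µM, 5 members were called higher and 1 (ERCC2) lower when only the 2 groups compared were fitted. At 10 µM, 3 members were called higher with a fold of at least 1.5, and 0 were called lower with that fold or after removal of the length and GC trend, with or without the replicate block. The 6 called higher there became 4 without a filter, with only the 2 groups, and with the trend removed, with or without the block. It was also 4 with any DMSO or 5 µM library left out. With the replicate block alone, and without 10 µM replicate 1 or 3, it was 5. Between the doses, 1 member (RRM2B) was called higher with the trend removed, with or without the replicate block, and 0 to 2 with a library left out, the 2 being RRM2B and POLH without 10 µM replicate 1. With a library left out, 0 to 1 members were lower at 5 µM.

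Of the 101 other repair genes, the number higher at 5 µM was 1 without a filter, 4 with DESeq2, 1 with the replicate block, 19 with only the 2 groups, 7 with the trend removed, 5 with the trend and the replicate block, and 0 with the fold. The number lower at 5 µM was 22 with DESeq2, 41 with only the 2 groups, 26 with the trend removed, 23 with the trend and the replicate block and 5 with the fold. At 10 µM, 4 were higher and 19 lower with the fold. Between the doses, 0 were called higher and 13 lower in the main edgeR fit. The shares were 0% and 12.9%, beside 2.87% and 5.53% of all tested genes. In other fits, 1 was higher with DESeq2-type size factors, 4 with DESeq2, 3 with the trend removed, 1 with the trend and the replicate block and 1 without ribosomal RNA genes. Of the calls lower, 7 remained with the replicate block, 1 with only the 2 groups and 2 with the fold. With a library left out, 0 to 16 were higher and 3 to 39 lower at 5 µM, 9 to 19 were higher at 10 µM, and 0 to 3 were higher and 2 to 29 lower between the doses. The highest of these counts came without 10 µM replicate 1, which shared the highest count of genes higher between the doses with the fit without 10 µM replicate 2. Shares of all tested genes were taken only in the main edgeR fit and the fit without 10 µM replicate 1. There 5.81% and 17.6% of all tested genes were called lower at 5 µM. In the remaining fits, the counts of members and of other repair genes show only how the calls moved. They cannot be read as results about these genes. The cause of these shifts was not tested.

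The difference between the class medians at 5 µM was 0.62 with ERCC5 among the p53-inducible members and 0.73 to 0.84 with a library left out. At 10 µM it was 0.77 with the trend removed, with or without the replicate block, 0.95 with ERCC5 and BIVM-ERCC5 summed, 0.75 with ERCC5 in the inducible class, and 0.80 to 0.94 with a library left out. Between the doses it was 0.20 in the main edgeR fit. In the alternatives it was 0.13, 0.13, 0.28, 0.26 and 0.13 to 0.22 in that order. Uncalled log2 fold changes that changed sign were DDB1 at 10 µM (0.0398 with the trend removed, 0.0401 with the trend and the replicate block), ERCC3 between the doses (-0.0039 and -0.0059 with the trend removed, without and with the block), and ERCC5 between the doses (-0.14 with the readthrough gene added). With a library left out, sign changed for XPC (-0.063 to 0.099) and ERCC3 (-0.035 to 0.071) between the doses, ERCC5 at 5 µM (-0.039 to 0.13), and POLK at 10 µM (-0.39 to 0.0088) and between the doses (-0.35 to 0.050). Same-numbered libraries did not deviate together (correlations of -0.0493 to 0.0322). Whether the replicate numbers mark a shared culture or day is not stated, and these correlations cannot decide it.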
